A study of Homo sapiens with 9 samples.

Results

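The 10 genes described here encode carriers that move glutamate, cystine and glutamine across the cell membrane. They were taken by gene symbol from a table of 58735 genes measured by RNA sequencing: SLC7A11, SLC3A2, SLC7A5, SLC1A1, SLC1A2, SLC1A3, SLC1A4, SLC1A5, SLC38A1 and SLC38A2. The rule reads only the symbol, and the list was drawn up with earlier results of these data known. The cells were GBM43, a line from a human glioblastoma, cultured with serum and GlutaMAX, a stabilised source of glutamine, and placed in 3D hyaluronic acid devices into which they could invade. There were 9 libraries, 3 in each of 3 groups. MK801 libraries came from devices given 50 µM MK801, which blocks the pore of NMDA-type glutamate receptors, with core and invading cells pooled because few cells had invaded. Invasive libraries came from the cells cut away from the core of control devices, and core libraries from the cells that had stayed there. As the treatment of control devices, culture medium is named in 1 place of the labels and DMSO vehicle in another. All groups share 1 cell line, and nothing in the labels says that the 3 libraries of a group were separate cultures, and p-values therefore reflect the spread of the libraries alone, which may be technical. Because each MK801 library mixes the positions that control devices separate, treatment and position cannot be told apart when it is set against 1 control fraction.

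SLC7A11 is the transport subunit of system xc-, which takes up cystine and releases glutamate in exchange. It reaches the membrane joined to SLC3A2, a heavy chain that also partners SLC7A5, the carrier that takes up leucine and other large amino acids and can release glutamine in exchange. Cystine supports glutathione synthesis, and glutamate released through system xc- is a known source of extracellular glutamate in gliomas. SLC1A1, SLC1A2 and SLC1A3 take glutamate back into cells. SLC1A4 and SLC1A5 exchange small neutral amino acids, and SLC38A1 and SLC38A2 bring in glutamine together with sodium.

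Libraries held between 15.6 and 54.4 M fragments on genes (1 M being 1000000). The deepest was MK801 library 3 at 54.4 M, and the next was core library 1 at 23.7 M. Levels are in FPKM, fragments scaled to gene length and library size. Weighted by fragments, mean transcript GC content was 53.6, 52.4 and 49.7% in MK801 libraries 1, 2 and 3, 51.9 to 53.7% in invasive and 49.0 to 50.3% in core libraries. At equal depth, 15161, 19031 and 21517 genes were detected in the MK801 libraries, 15975 to 19140 in invasive and 20322 to 21414 in core libraries. MK801 library 3 thus stood apart from the other MK801 libraries and lay by the core libraries on both measures. The calls in MK801 against core are therefore also given without it. Other values that involve MK801 include it unless stated. Of 7 glioblastoma and glial progenitor markers, VIM, CD44, EGFR and SOX2 were expressed, SOX2 at 1.39 to 3.26 FPKM. OLIG2 was listed at 0 in all 9 libraries, NES reached at most 0.510 FPKM and PTPRZ1 at most 0.0689 FPKM. In bulk RNA, fewer cells of a type and less RNA per cell cannot be told apart.

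SLC3A2, SLC7A5, SLC1A5 and SLC38A2 were the abundant carriers. By mean level over the 9 libraries they lay at the 98.5, 98.4, 97.3 and 97.1 percentiles of 19951 protein-coding genes. SLC1A3 and SLC38A1 were intermediate, at the 76.9 and 76.7 percentiles. SLC1A4, SLC7A11 and SLC1A1 averaged 1.28, 0.626 and 0.303 FPKM, and SLC1A2, the main glutamate carrier of mature astrocytes, never exceeded 0.00785 FPKM. In core libraries the mean levels ran, from high to low, SLC38A2, SLC3A2, SLC7A5, SLC1A5, SLC38A1, SLC1A3, SLC7A11, SLC1A4, SLC1A1 and SLC1A2. Neighbours whose core libraries overlapped were SLC38A2 with SLC3A2, SLC3A2 with SLC7A5, and SLC38A1 with SLC1A3. Invasive libraries had another order, with SLC7A5, SLC3A2 and SLC1A5 above SLC38A2, and in them SLC1A5 did not overlap SLC38A2. These orders hold for the gene lengths the authors used, which were 5178 bases for SLC3A2, whose longest transcript has 2222 bases, and 4745 bases for SLC7A5, whose longest has 4537. Dividing by transcript length would place SLC3A2 higher.

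**Figure D1:**
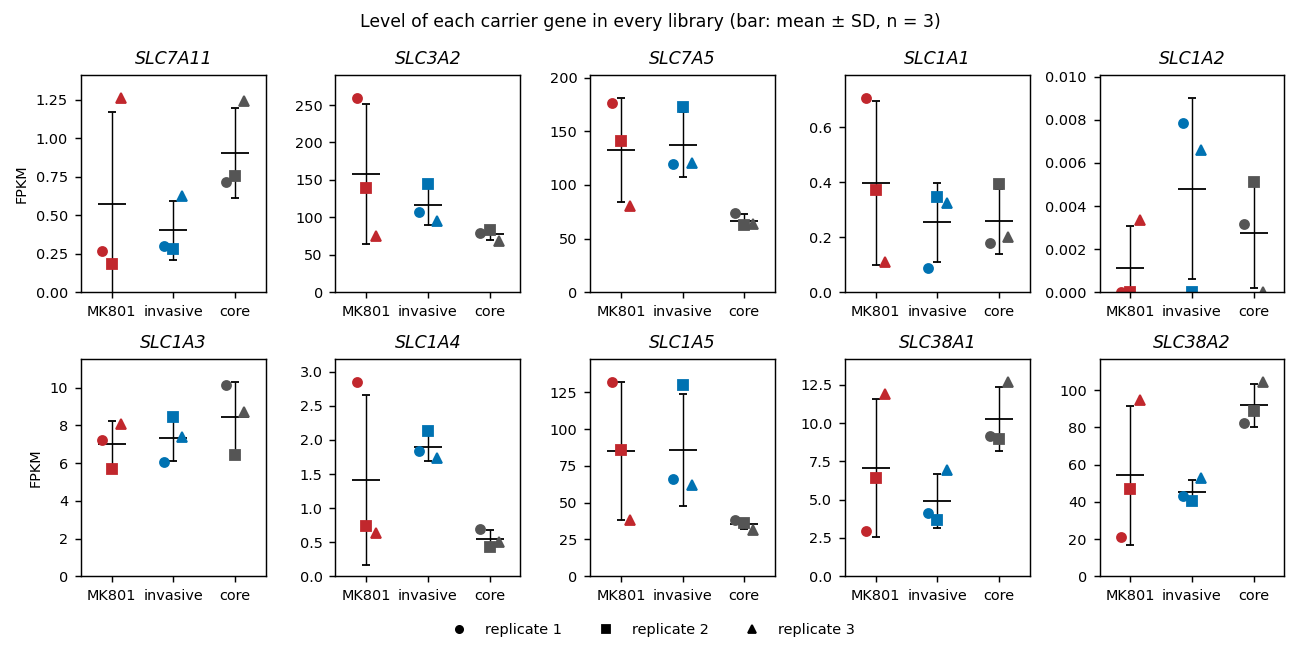
Level of each of the 10 carrier genes in FPKM (vertical axis, from 0 and on its own scale in each panel) in the 3 MK801, 3 invasive and 3 core libraries. Points are libraries, with a symbol for the replicate number, and bars give mean ± SD. As deposited, SLC3A2, SLC7A5, SLC1A5 and SLC1A4 were higher in every invasive than in every core library (SLC3A2 differed by -0.02 on the log2 scale once the GC trend was removed), and SLC38A1, SLC38A2 and SLC7A11 were lower. MK801 libraries spread over both ranges.

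The start regions of 5 carriers are shown because these genes lay apart between invasive and core libraries and differ in the sites they hold for regulators of amino acid carriers. Each runs from 250 bases before a RefSeq transcript start to 10 bases after it (RefSeq, GRCh38.p14, 5′ to 3′ on the gene's strand). Capitals mark the searched letters. These were TGATGNAA for the response element bound by ATF4, the factor of the amino acid shortage response, and TGACNNNGC for the antioxidant response element bound by NFE2L2. They were also CACGTG, the E-box bound by MYC, and TGANTCA, the AP-1 site, all on both strands.
SLC7A5, chr16:87869498-87869757, minus strand: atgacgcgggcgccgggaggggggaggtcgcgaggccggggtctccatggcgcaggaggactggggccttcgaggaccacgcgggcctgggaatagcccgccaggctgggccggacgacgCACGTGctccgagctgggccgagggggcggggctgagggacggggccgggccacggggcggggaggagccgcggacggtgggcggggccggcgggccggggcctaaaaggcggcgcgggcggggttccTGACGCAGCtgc
SLC3A2, chr11:62881449-62881708, plus strand: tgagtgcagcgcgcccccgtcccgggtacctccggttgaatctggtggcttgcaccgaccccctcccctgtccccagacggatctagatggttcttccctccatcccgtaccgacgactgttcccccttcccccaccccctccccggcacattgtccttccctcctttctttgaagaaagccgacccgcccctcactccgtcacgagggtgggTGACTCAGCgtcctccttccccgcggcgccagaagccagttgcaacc
SLC1A5, chr19:46788585-46788844, minus strand: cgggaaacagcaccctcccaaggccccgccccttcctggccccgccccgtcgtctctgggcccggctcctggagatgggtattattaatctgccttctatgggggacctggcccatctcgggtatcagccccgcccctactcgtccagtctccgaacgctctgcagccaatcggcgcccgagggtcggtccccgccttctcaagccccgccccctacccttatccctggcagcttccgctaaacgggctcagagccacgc
SLC1A4, chr2:64989149-64989408, plus strand: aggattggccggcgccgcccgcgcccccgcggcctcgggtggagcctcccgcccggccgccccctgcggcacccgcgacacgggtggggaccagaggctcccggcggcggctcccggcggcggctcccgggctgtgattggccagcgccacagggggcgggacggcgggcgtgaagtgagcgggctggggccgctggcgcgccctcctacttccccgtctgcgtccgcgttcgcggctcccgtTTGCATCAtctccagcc
SLC38A1, chr12:46266507-46266766, minus strand: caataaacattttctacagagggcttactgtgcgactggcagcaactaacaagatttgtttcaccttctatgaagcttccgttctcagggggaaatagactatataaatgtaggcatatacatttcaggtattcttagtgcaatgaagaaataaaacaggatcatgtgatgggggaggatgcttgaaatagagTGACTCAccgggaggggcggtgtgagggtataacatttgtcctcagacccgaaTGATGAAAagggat

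The RefSeq table held 16 start windows of 8 of the carriers and none for SLC7A11 and SLC1A2. For 11 of the 16, the bases just after the start were found in a GENCODE 29 transcript of the gene. An ATF4 element stood in 5 of the 16 windows, belonging to SLC1A3, SLC1A4, SLC1A5, SLC38A1 and SLC3A2, against 3.62% of all 35116 windows of the same 300-base length, which reach 50 bases past the start. The printed SLC1A4 window holds it on the reverse strand, beginning 7 bases before the start. In the printed SLC38A1 window it begins 4 bases before the start, and both matches reach the start itself. For these windows and the SLC1A3 window with the element, the bases after the start were in no such transcript. The same was true of the printed SLC7A5 window. The other windows of SLC1A4 and SLC38A1 held none of the searched letters, and neither did that of SLC38A2, which is not printed. The antioxidant element stood in 4 windows (13.35% of all), the AP-1 letters in 3 (7.71%) and the E-box in 2 (7.26%), those of SLC7A5 and SLC1A5. In SLC3A2 the AP-1 and antioxidant letters overlap, both beginning 37 bases before the start. The ATF4 element of SLC3A2 begins 37 bases after the start, past the printed stretch. The printed SLC1A5 window, its most upstream, held none of these letters. Several windows can belong to 1 gene, and a match is a description of letters only.

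In invasive against core libraries, none of the 7 carriers tested passed limma's test at an adjusted p of 0.05 in the fit of all 9 libraries, and neither did any of the 11845 genes tested (0%). At an unadjusted p under 0.05 there were 4461 genes (37.7%), among them 5 of the 7 carriers, and limma-voom, run on fragments recovered from FPKM, called 0 genes too. Invasive and core libraries nevertheless did not overlap for 6 of the 7: SLC3A2, SLC7A5, SLC1A5 and SLC1A4 were higher and SLC38A1 and SLC38A2 lower. Over all genes 64.8% did not overlap, 32.0% being higher and 32.8% lower, so separation of these groups was the common case. By log2 difference, 4 of the 7 carriers were higher and 3 lower. Their median was 0.56, the value of SLC3A2, against -0.02 over all tested genes. SLC1A4 is among the carriers counted in this paragraph, and no core library reached the filter's 1 FPKM for it. A difference between invasive and core was thus built into its being tested. Its part in these counts and this median is no support for one. When only the 6 control libraries were fitted, the 6 carriers without overlap passed, SLC1A4 among them, as did 52.2% of all genes. The calls in the 9-library fit depended on which MK801 libraries were in it. It called 4888 genes (41.3%) and 5 carriers for this contrast without MK801 library 3, 4675 genes (39.5%) and 5 carriers without MK801 library 1, and 1 gene and 0 carriers without MK801 library 2.

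SLC7A11 (ENSG00000151012, chromosome 4, 138164097 to 138242349, minus strand, GRCh38) is the glutamate-releasing subunit. It had 0.271, 0.181 and 1.26 FPKM in MK801 libraries 1, 2 and 3, 0.303, 0.282 and 0.623 FPKM in invasive libraries and 0.715, 0.755 and 1.24 FPKM in core libraries. Every invasive library was below every core library, and MK801 library 3 was the highest of all 9 while the other MK801 libraries were the lowest. Among 12115 genes with at least 50 fragments in 3 libraries, 65.6% likewise did not overlap between invasive and core. SLC7A11 met that count of fragments only with its core libraries included. These levels of SLC7A11 rest on 37, 27 and 792 fragments in MK801, 49, 49 and 120 in invasive and 192, 125 and 270 in core libraries. SLC7A11 reached 1 FPKM in only 2 libraries and so was not among the genes tested. In a fit with no filter, its log2 difference was -0.44 for invasive minus core (SE 0.28, limma adjusted p = 0.421) and -0.33 for MK801 minus core (SE 0.28, adjusted p = 0.543). The pseudocount of 1 FPKM shrinks differences at this level. Limma-voom on fragments, also with no filter, gave -1.20 for invasive minus core (SE 0.68, adjusted p = 0.348). Its value for SLC7A11 in MK801 minus core was -0.65 (SE 0.63, adjusted p = 0.662). With each library's trend over transcript GC content removed, the differences of SLC7A11 were -0.06 for invasive minus core and 0.003 for MK801 minus core.

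The 5 protein-coding genes whose level followed SLC7A11 most closely over the 9 libraries, of 5887 with a mean of at least 5 FPKM, were VMP1 (Pearson r 0.970), HSDL2 (0.969), MZT1 (0.962), HSPD1 (0.962) and EIF3J (0.961). Their transcripts had 32.0 to 44.2% GC, all below the median of 48.4% over tested genes, and that of SLC7A11 had 35.4%. The 9 libraries share their depth and GC differences, so this likeness is a description.

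SLC3A2 (ENSG00000168003, chromosome 11, 62856102 to 62888875, plus strand), the shared heavy chain, had 259.6, 139 and 74.7 FPKM in MK801 libraries, 108, 144 and 95.5 FPKM in invasive libraries and 79.4, 83.5 and 68.9 FPKM in core libraries. Invasive libraries all lay above core libraries, MK801 library 1 was the highest of all, and MK801 library 3 was inside the core range. The log2 difference was 0.56 for invasive minus core (SE 0.40, limma adjusted p = 0.282) and 0.85 for MK801 minus core (SE 0.40, adjusted p = 0.236). In the fit of control libraries alone, the SE was 0.21 and the adjusted p 0.0440, and removal of the trend over transcript GC content turned the invasive difference to -0.02.

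SLC7A5 (ENSG00000103257, chromosome 16, 87830023 to 87869488, minus strand), the leucine and glutamine exchanger, had 176, 141 and 80.1 FPKM in MK801 libraries, 119.7, 173 and 121 FPKM in invasive libraries and 74.1, 62.7 and 63.7 FPKM in core libraries. It was the only carrier of which all MK801 and all invasive libraries lay above all core libraries, although MK801 library 3 was close to the highest core library. The log2 difference was 1.01 for invasive minus core (SE 0.31, limma adjusted p = 0.106), a fold of 2.02 on the log2(FPKM + 1) scale, and 0.91 for MK801 minus core (SE 0.31, adjusted p = 0.235). With control libraries alone the invasive difference had an adjusted p of 0.00537, and removal of the GC trend in that fit left a difference of 0.32, a fold of 1.25 (adjusted p = 0.110).

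The ratio of SLC7A5 to SLC3A2 within a library was 0.679, 1.02 and 1.07 in MK801, 1.11, 1.19 and 1.27 in invasive and 0.932, 0.751 and 0.925 in core libraries. The ratio was higher in all invasive than in all core libraries. Its size depends on the SLC3A2 length used, and with the longest transcripts it would be lower in every library. The ratio of SLC7A11 to SLC3A2 was 0.00104, 0.00131 and 0.0169 in MK801, 0.00195 to 0.00653 in invasive and 0.00901 to 0.0180 in core libraries. By these messages the cystine exchanger's own subunit was scarce beside the heavy chain in every library. The ratio was lower in all invasive than in all core libraries. This follows from SLC7A11 being lower and SLC3A2 higher there without overlap, and is no further result. The transcript GC contents are 35.4% for SLC7A11, 57.4% for SLC3A2 and 61.1% for SLC7A5, and ratios between genes that differ so in GC move with the GC content of the libraries given above.

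SLC1A5 (ENSG00000105281, chromosome 19, 46774883 to 46788594, minus strand), a major glutamine carrier of tumour cells, had 132, 85.5 and 38.1 FPKM in MK801 libraries, 66.0, 129.7 and 61.7 FPKM in invasive libraries and 38.5, 36.4 and 31.5 FPKM in core libraries. All invasive libraries were above all core libraries, 2 MK801 libraries were too, and MK801 library 3 was within the core range. The log2 difference was 1.17 for invasive minus core (SE 0.43, limma adjusted p = 0.109) and 1.08 for MK801 minus core (SE 0.43, adjusted p = 0.235). With control libraries alone the adjusted p was 0.00892, and removal of the GC trend in that fit left 0.47 (adjusted p = 0.0916).

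SLC1A4 (ENSG00000115902, chromosome 2, 64988477 to 65023865, plus strand), which exchanges alanine, serine, cysteine and threonine, had 2.85, 0.737 and 0.638 FPKM in MK801 libraries, 1.84, 2.13 and 1.73 FPKM in invasive libraries and 0.694, 0.428 and 0.499 FPKM in core libraries. The invasive libraries were close together and all above the core libraries, while in MK801 only library 1 was above the core range by more than 0.1 FPKM. It passed the filter on low values through the 3 invasive libraries and MK801 library 1. Its log2 difference was 0.91 for invasive minus core (SE 0.31, limma adjusted p = 0.106) and 0.53 for MK801 minus core (SE 0.31, adjusted p = 0.273). The pseudocount of 1 FPKM shrinks these, and with a pseudocount of 0.1 the invasive difference was 1.66 (SE 0.54, adjusted p = 0.114), a fold of 3.16 against 1.89. No core library reached the filter's 1 FPKM, so a difference between invasive and core was built into its being tested, and its call with control libraries alone (adjusted p = 0.00530) is no support for one.

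SLC38A2 (ENSG00000134294, chromosome 12, 46358189 to 46372867, minus strand), a sodium-coupled glutamine carrier, had 21.2, 46.6 and 94.9 FPKM in MK801 libraries, 43.2, 40.3 and 52.7 FPKM in invasive libraries and 82.3, 88.7 and 104 FPKM in core libraries. Invasive libraries all lay below core libraries, and so did MK801 libraries 1 and 2, with MK801 library 3 inside the core range. The log2 difference was -1.002 for invasive minus core (SE 0.43, limma adjusted p = 0.125) and -0.99 for MK801 minus core (SE 0.43, adjusted p = 0.235). With control libraries alone the adjusted p was 0.00445, and removal of the GC trend in that fit left -0.29 (adjusted p = 0.0909).

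SLC38A1 (ENSG00000111371, chromosome 12, 46183063 to 46270017, minus strand), its neighbour 88172 bases away, is a related sodium-coupled glutamine carrier. It had 2.96, 6.42 and 11.9 FPKM in MK801 libraries, 4.11, 3.68 and 6.92 FPKM in invasive libraries and 9.15, 8.98 and 12.7 FPKM in core libraries. The pattern was that of SLC38A2, with invasive libraries below core libraries and MK801 library 3 inside the core range. Its log2 difference was -0.96 for invasive minus core (SE 0.39, limma adjusted p = 0.117; 0.00905 with control libraries alone, and 0.0939 there once the GC trend was removed) and -0.62 for MK801 minus core (SE 0.39, adjusted p = 0.291). SLC38A1 stayed at 0.125 to 0.140 of the SLC38A2 level in MK801, 0.0914 to 0.131 in invasive and 0.101 to 0.122 in core libraries. The ratio of the neighbours was thus higher in all MK801 than in all core libraries, and it varied less than either level. Their transcripts have 41.3% and 38.1% GC, both below the median of 48.4% over tested genes.

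The exchanger SLC1A5 and the sodium-coupled SLC38A2, both glutamine carriers, ran in opposite directions. The ratio of SLC1A5 to SLC38A2 was 6.22, 1.83 and 0.401 in MK801, 1.53, 3.22 and 1.17 in invasive and 0.467, 0.410 and 0.301 in core libraries. The ratio was higher in all invasive than in all core libraries, and MK801 library 3 was inside the core range. The separation of invasive from core follows from those of SLC1A5 and SLC38A2 themselves and is no further result. SLC1A5 transcripts have 61.3% GC and SLC38A2 transcripts 38.1%, at the 89.5 and 8.5 percentiles of tested genes.

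**Figure D2:**
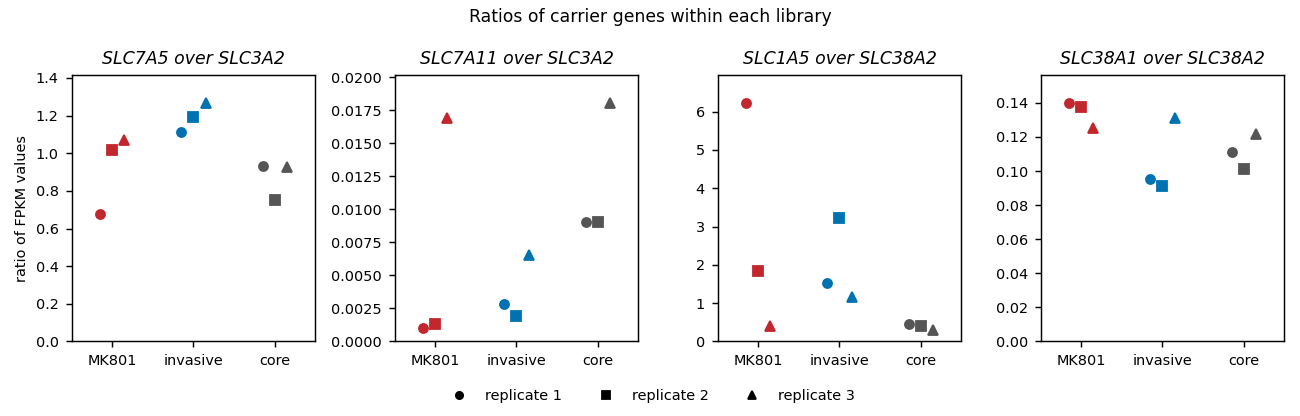
Ratios of FPKM values between pairs of carrier genes within each of the 9 libraries (vertical axes, from 0, no unit). Points are libraries, with a symbol for the replicate number. SLC7A5 over SLC3A2 and SLC1A5 over SLC38A2 were higher in all invasive than in all core libraries, their size depending on the gene lengths behind FPKM. For SLC1A5 over SLC38A2 this follows from the levels, SLC1A5 being higher and SLC38A2 lower without overlap. SLC38A1 over SLC38A2 stayed between 0.0914 and 0.140 throughout and was higher in all MK801 than in all core libraries.

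The glutamate uptake carriers showed no such separation. SLC1A3 (ENSG00000079215, chromosome 5, 36606355 to 36688334, plus strand), an astrocyte glutamate carrier, was at 7.24, 5.69 and 8.10 FPKM in MK801, 6.04, 8.48 and 7.41 FPKM in invasive and 10.1, 6.42 and 8.74 FPKM in core libraries. All 3 groups overlapped, and the log2 difference was -0.17 for invasive minus core (SE 0.23, limma adjusted p = 0.564) and -0.23 for MK801 minus core (SE 0.23, adjusted p = 0.484). SLC1A1 (ENSG00000106688, chromosome 9, 4490444 to 4587469, plus strand), the neuronal glutamate and cysteine carrier, was at 0.707, 0.373 and 0.112 FPKM in MK801, 0.0896 to 0.347 FPKM in invasive and 0.180 to 0.393 FPKM in core libraries, and its groups overlapped too. SLC1A2 (ENSG00000110436, chromosome 11, 35251205 to 35420063, minus strand) was listed at 0 in 4 of the 9 libraries, where a count of 0 allows up to 0.00928 FPKM, a limit that covers counting error only. Neither SLC1A1 nor SLC1A2 was tested.

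In MK801 against core libraries, 0 of the 7 tested carriers and 0 of 11845 genes (0%) passed limma's test. At an unadjusted p under 0.05 there were 2509 genes (21.2%) and 3 carriers, SLC7A5, SLC1A5 and SLC38A2, and limma-voom called 0 genes. Only SLC7A5 did not overlap, against 18.7% of all genes. The median log2 difference over the 7 was 0.53, against 0.005 over all tested genes. That 0.53 is the value of SLC1A4, which passed the filter only through libraries outside the core group. This median is thus no support for a shift of the carriers. For 8 of the 9 carriers with a measurable level, MK801 library 3 was closer to the core mean than to the invasive mean (the exception was SLC1A1). MK801 library 1 was closer to the core mean for 1 of the 9 and MK801 library 2 for 2 of the 9. The shares over all tested genes were not computed, so these counts are not a trait of the carriers.

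Without MK801 library 1 the fit called 0 genes in MK801 against core, and 0 without MK801 library 2. Without MK801 library 3 it called 5941 genes (50.2%) and 5 of the 7 carriers. That library was left out because it lay by the core libraries, a choice that favours a larger difference from core. The calls without it are therefore a description and no support for a difference. SLC3A2 (log2 1.29, SE 0.30, limma adjusted p = 0.00995), SLC7A5 (log2 1.23, SE 0.24, adjusted p = 0.00833) and SLC1A5 (log2 1.56, SE 0.33, adjusted p = 0.00867) were higher in the remaining MK801 libraries. SLC38A1 (log2 -1.04, SE 0.31, adjusted p = 0.0216) and SLC38A2 (log2 -1.51, SE 0.31, adjusted p = 0.00851) were lower. These are the libraries with the higher GC content and the fewer genes detected, and with the dependence on GC content removed as well, 0 carriers were called (2.79% of genes), with adjusted p from 0.0669 to 0.736.

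In MK801 against invasive libraries, 0 carriers and 0 genes (0%) passed, and limma-voom called 0 genes. At an unadjusted p under 0.05 there were 978 genes (8.26%) and 0 carriers. No carrier was free of overlap between these groups, against 10.8% of all genes. Log2 differences ran from -0.38 for SLC1A4 (SE 0.31, limma adjusted p = 0.886) to 0.33 for SLC38A1 (SE 0.39, adjusted p = 0.943). A p that misses the threshold does not show that the levels were the same.

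**Figure D3:**
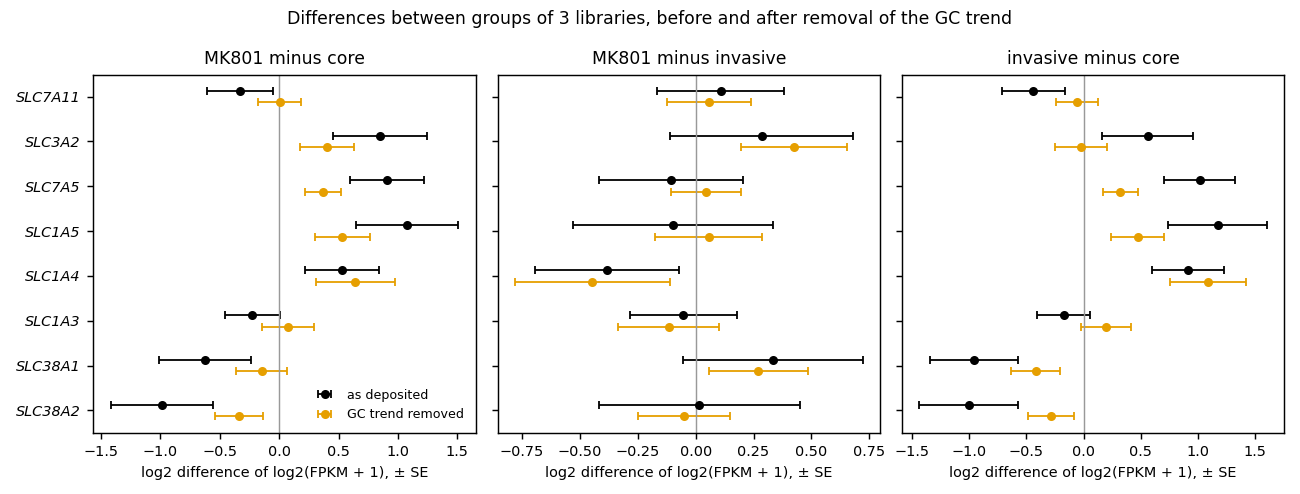
Log2 differences of log2(FPKM + 1) with SE (horizontal axis) for 8 carriers in MK801 minus core, MK801 minus invasive and invasive minus core, from groups of 3 libraries. Black points are values as deposited and orange points values after each library's trend over transcript GC content was removed; SLC7A11 comes from the fit with no filter. Most differences from core libraries lay nearer 0 after the removal, and SLC1A4 and, in invasive minus core, SLC1A3 did not.

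Differences between the groups followed the GC content of transcripts over all genes. The median log2 difference in invasive minus core was -0.78 in the 10% of tested genes with the lowest GC content and 0.76 in the 10% with the highest. In MK801 minus core these medians were -0.67 and 0.64. The carriers that were higher in invasive libraries and rich in GC were SLC7A5 (61.1%), SLC1A5 (61.3%) and SLC3A2 (57.4%), and those that were lower and poor in GC were SLC38A2 (38.1%), SLC38A1 (41.3%) and SLC7A11 (35.4%). SLC3A2, at 0.56, was next to the median of 0.57 among genes of its own GC class, the classes each holding 10% of tested genes. SLC7A5 and SLC1A5, at 1.01 and 1.17, were outside the middle 50% of theirs, which ran from 0.41 to 0.93. SLC38A1, at -0.96, was also outside and lower than its class, whose middle 50% began at -0.77. SLC38A2, at -1.002, was only just outside its own, which began at -0.99.

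SLC1A4 did not follow this pattern. Its transcript had 46.5% GC, near the median gene, and its class had a median of -0.13 in invasive minus core, against its own 0.91. After removal of each library's trend over GC content, its difference was 1.09 (SE 0.17, limma adjusted p = 0.0110 with control libraries alone; 0.136 with all 9 libraries). It was the only carrier of 7 called in the corrected fit of control libraries, which called 19.2% of genes, 10.5% as higher. As it was tested only because libraries outside the core group reached 1 FPKM, that call is a description. The corrected values of the others were 0.47 for SLC1A5 (adjusted p = 0.0916), 0.32 for SLC7A5 (0.110), -0.02 for SLC3A2 (0.916), 0.19 for SLC1A3 (0.506), -0.42 for SLC38A1 (0.0939) and -0.29 for SLC38A2 (0.0909). Removing the trend also takes away any difference between the cells that goes with GC content, and which of these the trend is cannot be told apart from these files.

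**Figure D4:**
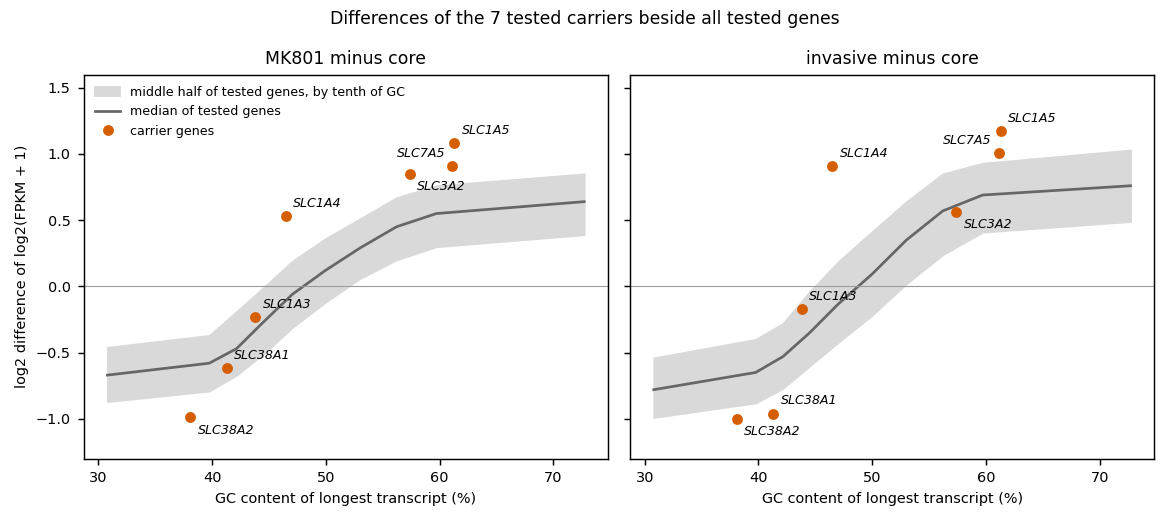
Log2 difference of log2(FPKM + 1) (vertical axis) against the GC content of the longest transcript (horizontal axis, %) for the 7 tested carriers (points), in MK801 minus core and invasive minus core. The line is the median and the band the middle 50% of tested genes in each GC class of 10% of the genes, drawn at the centre of the class's range. Most carriers lay on the side of 0 where genes of their GC content lay, and SLC1A4 was above its class, at 0.53 in MK801 minus core and 0.91 in invasive minus core.

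Genes of the surrounding metabolism were read from 4 lists, none of whose members passed in the 9-library fit in any of the 3 comparisons. Of 20 enzymes that make or use glutamate and glutamine, 16 were tested. With control libraries alone 9 were called higher and 4 lower in invasive than in core libraries, beside 26.3% of all genes higher and 25.9% lower. Corrected values for the named genes are from this fit of control libraries with the GC trend removed, where the counts were 8 higher and 1 lower, beside 10.5% and 8.73% of all genes. GLUL, which makes glutamine from glutamate, averaged 23.6 ± 6.56 FPKM in MK801, 27.8 ± 3.16 FPKM in invasive and 16.4 ± 1.43 FPKM in core libraries (SD, n = 3 each; corrected log2 1.04 for invasive minus core, limma adjusted p = 0.0107). CTPS1, which uses glutamine to make CTP, averaged 2.68 ± 0.688 FPKM in MK801, 4.64 ± 0.603 FPKM in invasive and 2.29 ± 0.494 FPKM in core libraries (corrected log2 1.20, adjusted p = 0.01003). CAD, which starts pyrimidine synthesis with glutamine, had a corrected difference of 0.58 (adjusted p = 0.0329), and PYCR1, which makes proline, 0.43 (adjusted p = 0.0420).

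Of 31 other amino acid carriers, 11 were tested. With control libraries alone 7 were called higher and 0 lower in invasive libraries, beside 26.3% and 25.9% of all genes, and with the GC trend removed 1 higher and 0 lower, beside 10.5% and 8.73%. SLC25A13, a mitochondrial aspartate and glutamate carrier, was that gene, at 3.18 ± 1.13 FPKM in MK801, 5.42 ± 0.656 FPKM in invasive and 3.14 ± 0.764 FPKM in core libraries (corrected log2 0.93 for invasive minus core, limma adjusted p = 0.0119). SLC38A10 averaged 11.6 ± 4.49 FPKM in MK801, 17.1 ± 2.47 FPKM in invasive and 7.10 ± 1.21 FPKM in core libraries, with a corrected difference of 0.41 (adjusted p = 0.0690). SLC43A1, a leucine carrier, and SLC25A22, a mitochondrial glutamate carrier, had corrected differences of 0.47 (adjusted p = 0.111) and 0.18 (adjusted p = 0.275). Of the vesicular glutamate carriers, SLC17A6 and SLC17A8 were listed at 0 in all libraries, but SLC17A7 was expressed in all. It averaged 3.44 ± 1.45 FPKM in MK801, 1.56 ± 0.969 FPKM in invasive and 1.71 ± 0.671 FPKM in core libraries. Its groups overlapped in every comparison.

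Of 16 genes of glutathione synthesis and cysteine use, 13 were tested, with 5 called higher and 1 lower in invasive libraries in the fit of control libraries, and 4 higher and 0 lower once corrected. The shares of all genes were 26.3% higher and 25.9% lower, and 10.5% and 8.73% once corrected. GSS, which completes glutathione, averaged 12.9 ± 7.87 FPKM in MK801, 14.7 ± 1.91 FPKM in invasive and 6.92 ± 0.433 FPKM in core libraries (corrected log2 0.58, limma adjusted p = 0.0123). ANPEP, an aminopeptidase that frees cysteine from its dipeptide, averaged 10.3 ± 4.29 FPKM in MK801, 35.3 ± 10.8 FPKM in invasive and 11.0 ± 3.91 FPKM in core libraries (corrected log2 0.99 for invasive minus core, adjusted p = 0.0260). GCLM, the modifier subunit of the first enzyme of the pathway, averaged 1.97 ± 0.947 FPKM in MK801, 2.86 ± 0.769 FPKM in invasive and 2.87 ± 0.584 FPKM in core libraries, and passed only once corrected (log2 0.73, adjusted p = 0.0341). TXN, a thioredoxin, had a corrected difference of -0.40 (adjusted p = 0.0772), GGT1, which cleaves extracellular glutathione, 0.22 (adjusted p = 0.250), and CHAC1, which degrades glutathione, -0.23 (adjusted p = 0.309).

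Of 18 regulators of these carriers 17 were tested, with 5 called higher and 4 lower in invasive libraries in the fit of control libraries, and 2 higher and 4 lower once corrected. Called shares of all genes were again 26.3% and 25.9%, and 10.5% and 8.73% once corrected, so most of these counts were near the background. ATF4, whose element stands in 5 of the start windows, averaged 210.2 ± 4.29 FPKM in MK801, 188 ± 24.9 FPKM in invasive and 197 ± 31.3 FPKM in core libraries. Its log2 difference in invasive minus core was -0.06 as deposited (limma adjusted p = 0.817 with control libraries alone) and -0.61 corrected (adjusted p = 0.0410). DDIT3, a transcription factor of the stress response, averaged 26.4 ± 5.29 FPKM in MK801, 14.1 ± 6.28 FPKM in invasive and 32.1 ± 5.30 FPKM in core libraries (corrected log2 -1.29 for invasive minus core, adjusted p = 0.0308). ASNS, a classical target of ATF4, was at 0.354 ± 0.115 FPKM in MK801, 0.308 ± 0.151 FPKM in invasive and 0.620 ± 0.368 FPKM in core libraries and was not tested.

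NFE2L2, which drives SLC7A11 in oxidative stress, averaged 5.97 ± 3.79 FPKM in MK801, 4.67 ± 0.707 FPKM in invasive and 9.36 ± 2.51 FPKM in core libraries (corrected log2 -0.62 for invasive minus core, limma adjusted p = 0.0470). SGK1, a kinase that promotes amino acid carriers at the membrane, averaged 29.8 ± 7.003 FPKM in MK801, 17.7 ± 4.70 FPKM in invasive and 16.6 ± 1.70 FPKM in core libraries, with MK801 above core without overlap (log2 0.79, SE 0.26, adjusted p = 0.235 with all 9 libraries). NEDD4L, a ubiquitin ligase of membrane carriers, averaged 4.48 ± 0.587 FPKM in MK801, 2.23 ± 0.265 FPKM in invasive and 3.45 ± 0.954 FPKM in core libraries (log2 0.76 for MK801 minus invasive, SE 0.21, adjusted p = 0.321).

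Markers of other cell types were read beside the carriers. The summed level of 5 fibroblast and pericyte markers was 42.1 to 127 FPKM in MK801, 220.5 to 407 FPKM in invasive and 37.9 to 74.3 FPKM in core libraries, and so moved with the difference between invasive and core libraries. It was carried by COL1A1 and PDGFRB, while DCN and RGS5 were under 1 FPKM in every library. RGS5 ran the other way, at 0 to 0.460 FPKM in MK801, 0.0570 to 0.166 FPKM in invasive and 0.385 to 0.589 FPKM in core libraries. The part of the summed level in the carriers' differences was not tested. Astrocyte markers other than GJA1, neuronal markers other than TUBB3 and all oligodendrocyte markers were under 1 FPKM in every library, with AQP4, MOG and MAG listed at 0. Among myeloid markers only CSF1R exceeded 1 FPKM, at 1.19 to 4.55 in MK801, 3.98 to 5.74 in invasive and 1.71 to 2.46 FPKM in core libraries, and PTPRC was at 0 to 0.0336 in MK801, 0 to 0.00546 in invasive and 0.0274 to 0.0699 FPKM in core libraries. Among endothelial markers CDH5 reached 0.0354 to 0.558 FPKM in MK801, 0.758 to 3.15 in invasive and 0.00591 to 0.0729 FPKM in core libraries, and PECAM1, at most 1.32 FPKM, overlapped between them, while CLDN5 was at most 0.0129 FPKM. CSF1R and CDH5 were thus higher and PTPRC lower in invasive than in core libraries without overlap, and CSF1R was not called once the GC trend was removed (log2 0.38, limma adjusted p = 0.0658 with control libraries alone). Their part in the carriers' differences was not tested.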

How the data were processed

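The deposited table holds FPKM per gene and the gene length the authors used, 1 column per library, with 0 value columns left unmapped. Per the submitters' processing notes, HISAT2 2.0.5, featureCounts 1.5.0-p3 and GRCh38 were used; their settings, strand use included, are not given in the sources used here. Gene identifiers and coordinates matched GENCODE 29 (100%). FPKM times length gave whole fragments for 100% of values (tolerance 0.01), which set the depths. The library total behind FPKM was 0.769 to 1.195 times the recovered gene total in MK801, 0.788 to 1.065 times in invasive and 1.102 to 1.229 times in core libraries, so scaling differed between groups, and other scalings were tried.

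From log2(FPKM + 1), limma 3.58.1 (R 4.3.3; empirical Bayes with trend, two-sided) fitted 1 mean per group over all 9 libraries to genes with at least 1 FPKM in 3 libraries, with Benjamini-Hochberg adjustment over all 11845 and a threshold of 0.05. As an alternative, the trend over the GC content of the longest transcript was removed per library by loess. The steps were tested on simulated data. Alternatives were other pseudocounts, filters, scalings, voom, fewer groups, a replicate block and leaving out each library. The carriers, pathway lists and markers were chosen with earlier results of these data known. From each pathway list, up to 4 genes with the smallest unadjusted p in any comparison are named, plus ATF4, NFE2L2, CHAC1, ASNS and GCLM. SLC17A6, SLC17A7, SLC17A8 and the marker genes were picked after their values were seen. A gene that the rule names is not reported here. No adjusted p over the carriers alone was computed.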

Additional observations from a re-analysis of the deposited data

How the results depend on the processing

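Of 543 carrier values recomputed under 23 other settings, 475 kept their direction and side of the threshold, 26 passed the threshold only under the other setting, and 42 changed sign; the cause was not tested. For invasive minus core, quantile normalization called 6 genes, and the fit of control libraries alone called 6179 genes and 6 carriers. Removal of the GC trend left 2279 genes and 1 carrier with control libraries alone, and 644 genes and 0 carriers in the fit without MK801 replicate 3. Those combinations of GC removal with fewer libraries, and voom on genes with 50 fragments in 3 libraries, were chosen after seeing the data. Leaving out 1 library at a time gave 0 to 4888 genes and 0 to 5 carriers for invasive minus core, 0 to 5941 genes and 0 to 5 carriers for MK801 minus core, and 0 to 42 genes and 0 carriers for MK801 minus invasive. For MK801 minus core, GC removal without MK801 replicate 3 called 330 genes. For MK801 minus invasive, a filter of 5 FPKM called 1 gene, and GC removal called 73 genes with all libraries, 3 with the 2 groups alone and 5 without MK801 replicate 3.

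The replicate numbers of the labels do not establish a pairing: the deviations of same-numbered libraries correlated at -0.007, 0.243 and 0.445 between invasive and core, at 0.413, 0.044 and 0.585 between MK801 and core, and at -0.15, 0.034 and 0.608 between MK801 and invasive. The deposited column names give core and invasive libraries of 1 number a shared stem, and no label says that it marks 1 device. With the replicate block, invasive minus core gave 2525 genes (21.3%) and 4 carriers, SLC7A5, SLC1A5, SLC1A4 and SLC38A1, and 38 genes and 0 carriers with GC removal as well. With the block and GC removal, MK801 minus invasive gave 39 genes.

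GC removal, in all fits it was part of, gave a sign change, with SLC3A2 at -0.021 and SLC1A3 at 0.193 in invasive minus core. In MK801 minus core it turned SLC1A3 to 0.076 (0.13 without MK801 replicate 3) and SLC7A11 to 0.003 (-0.12 without MK801 replicate 3). In MK801 minus invasive it turned SLC1A5 to 0.056, SLC38A2 to -0.05 and SLC7A5 to 0.046, and without MK801 replicate 3 to 0.27, -0.24 and 0.10, with SLC7A11 at -0.065. There voom turned SLC38A2 to -0.038 (-0.034 with genes of 50 fragments in 3 libraries). Leaving out 1 library gave ranges in that comparison that crossed 0: SLC7A11 -0.19 to 0.28, SLC3A2 -0.16 to 0.73, SLC7A5 -0.35 to 0.22, SLC1A5 -0.49 to 0.39, SLC1A3 -0.17 to 0.07, SLC38A1 -0.083 to 0.77 and SLC38A2 -0.50 to 0.55. Depth limits SLC1A1, SLC1A2 and SLC7A11, which rest on few fragments.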
